A study of Rattus norvegicus with 18 samples.

Results

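miR-483 and miR-675 are the miRNAs of the imprinted Igf2/H19 domain, and this account covers every arm of both that was counted in rat gastrocnemius muscle. Members were the entries whose name after rno- is miR-483 or miR-675. The rule gave 4 of 909 entries, namely rno-miR-483-3p, rno-miR-483-5p, rno-miR-675-5p and rno-miR-675-3p. Small RNA was sequenced from male Brown Norway rats, 1 library per rat, with 6 libraries per group. Young AL rats were 6 months old and fed ad libitum, old AL rats were 28 months old and fed ad libitum, and old CR rats were 28 months old and had been on caloric restriction (CR) since they reached maturity. The tissue was whole muscle, so that fewer cells of a type and less RNA per cell cannot be told apart. No cell type was isolated, and the host transcripts Igf2 and H19 were not measured in these small RNA libraries.

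Igf2 and H19 are neighbouring imprinted genes that share enhancers. Igf2, which encodes a fetal growth factor, is transcribed from the paternal chromosome, and the H19 non-coding RNA from the maternal one. miR-483 is cut from an intron of Igf2 and miR-675 from the first exon of H19. Both host genes are abundant in fetal muscle, and Igf2 falls after birth and returns during muscle regeneration. miR-675 is known to repress the IGF1 receptor and, in differentiating myoblasts, Smad1, Smad5 and Cdc6. miR-483-3p is known to repress the pro-apoptotic gene Bbc3 (PUMA).

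The RefSeq annotation of GRCr8 places Mir483 within Igf2 and Mir675 within H19, both on the minus strand of the same chromosome. The submitters' processing notes name Rnor_6.0, another build, so no coordinates are given. The 2 hairpins are shown to place the arms on their precursors, in lower case with the 5p arm and then the 3p arm in capitals, 5′ to 3′ (RefSeq, GRCr8).
Mir483: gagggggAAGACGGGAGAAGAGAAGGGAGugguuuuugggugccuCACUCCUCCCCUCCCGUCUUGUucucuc
Mir675: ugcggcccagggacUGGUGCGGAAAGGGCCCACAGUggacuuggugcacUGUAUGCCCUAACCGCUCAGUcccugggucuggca

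The mature sequences of all 4 members were found in the same RefSeq table and are shown with the seed, bases 2 to 8, in capitals. The seed is the stretch that pairs with target mRNAs.
rno-miR-483-3p: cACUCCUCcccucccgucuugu
rno-miR-483-5p: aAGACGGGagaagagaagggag
rno-miR-675-5p: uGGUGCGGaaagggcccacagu
rno-miR-675-3p: uGUAUGCCcuaaccgcucagu
The 4 seeds differed from each other, and 0 of the other rat miRNAs among the 693 mature sequences of the table shared any of them. The arms of miR-483 were lopsided in composition. rno-miR-483-5p held 21 purines in 22 bases and rno-miR-483-3p held 19 pyrimidines in 22 bases. GC content was 63.6% in rno-miR-483-3p and rno-miR-675-5p, 54.5% in rno-miR-483-5p and 52.4% in rno-miR-675-3p, above the median of 47.8% over the table in each case.

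The libraries held 34940346 to 83110905 counts. TMM factors, which correct for differences in composition, ranged from 0.639 to 2.14, and the highest were those of old AL replicates 7 and 8 (2.14 and 1.37). The markers of striated muscle were present throughout, with rno-miR-1-3p, rno-miR-133a-3p, rno-miR-206-3p, rno-miR-208b-3p and rno-miR-499-5p together at 69000 to 185600 CPM (counts per 1000000 after TMM scaling). Against this, miR-483 and miR-675 were minor miRNAs. The 4 members together took 3.02 CPM (young AL replicate 4) to 44.3 CPM (old AL replicate 10), which rested on 132 to 3150 counts. By mean level they ranked 200 (rno-miR-483-3p), 215 (rno-miR-483-5p), 232 (rno-miR-675-3p) and 273 (rno-miR-675-5p) among the 763 known miRNAs, of which 689 had any count. Every member was counted in every library. The smallest value, 19 counts of rno-miR-483-3p in young AL replicate 4, has an exact 95% Poisson interval of 11.4 to 29.7 counts, which covers counting error only.

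With age, all 4 members were higher on average in ad libitum-fed rats, by 2.68-fold to 6.38-fold, but 4 of the 6 old AL rats carried most of the difference. In old AL replicates 9, 10, 11 and 12 each of the 4 members lay above every young AL library. Old AL replicates 7 and 8 stayed within or below the young range, apart from rno-miR-675-5p in replicate 7. A call needed a Benjamini-Hochberg adjusted p of 0.05 or less over all entries together with a fold change of 1.5 or more. edgeR called 0 of 4 members (0.956% of 732 entries were called higher), whereas DESeq2 called all 4 higher (4.92% of entries). At an unadjusted p under 0.05 edgeR had all 4 higher (11.3% of entries), and all 4 had a fold change of 1.5 or more (22.3% of entries). For 0 of 4 did every old AL library lie above every young AL library (0.82% of entries).

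rno-miR-483-3p, the arm with the largest difference among the 4, was at 0.434, 1.75 and 2.97 CPM in young AL (lowest, median and highest library), against 0.884, 12.0 and 22.0 CPM in old AL. The high old AL libraries spread widely, and replicates 7 and 8, at 1.98 and 0.884 CPM, were no higher than young muscle. Group means were 1.75 ± 1.09 CPM for young AL and 11.0 ± 8.67 CPM for old AL (SD, n = 6 each). edgeR estimated this as 2.67 ± 0.78 on the log2 fold scale (estimate ± standard error), with an adjusted p of 0.0879, and DESeq2 gave an adjusted p of 0.00139.

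rno-miR-483-5p, the other arm of the Igf2 hairpin, was at 0.549, 1.84 and 4.00 CPM in young AL, against 1.35, 8.89 and 11.5 CPM in old AL (lowest, median and highest). Again 4 old AL libraries lay above the young range and 2 lay inside it. Means were 1.99 ± 1.18 CPM for young AL and 7.34 ± 4.68 CPM for old AL (SD, n = 6 each). The edgeR estimate was 1.89 ± 0.61 on the log2 fold scale, its adjusted p was 0.105, and DESeq2 gave 0.00841.

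rno-miR-675-5p, the less abundant arm of the H19 hairpin, had the tightest young group of the 4. It was at 0.683, 0.858 and 1.11 CPM in young AL, a range of 1.62-fold, and at 0.358, 3.22 and 3.70 CPM in old AL, a range of 10.3-fold. In old AL, 5 libraries lay above every young AL library and 1 (replicate 8) lay below all of them. Means were 0.849 ± 0.158 CPM for young AL and 2.55 ± 1.45 CPM for old AL (SD, n = 6 each). On the log2 fold scale edgeR estimated 1.61 ± 0.47, with an adjusted p of 0.0879, and the adjusted p from DESeq2 was 0.00847.

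rno-miR-675-3p was at 1.19, 1.81 and 2.78 CPM in young AL, against 0.633, 6.45 and 7.31 CPM in old AL. Replicates 9 to 12 stood close together above the young range, replicate 7 was inside it, and replicate 8 was below all young AL libraries. Means were 1.87 ± 0.669 CPM for young AL and 4.93 ± 2.90 CPM for old AL (SD, n = 6 each). edgeR estimated 1.42 ± 0.52 on the log2 fold scale, with an adjusted p of 0.146, and DESeq2 gave an adjusted p of 0.0392.

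**Figure D1:**
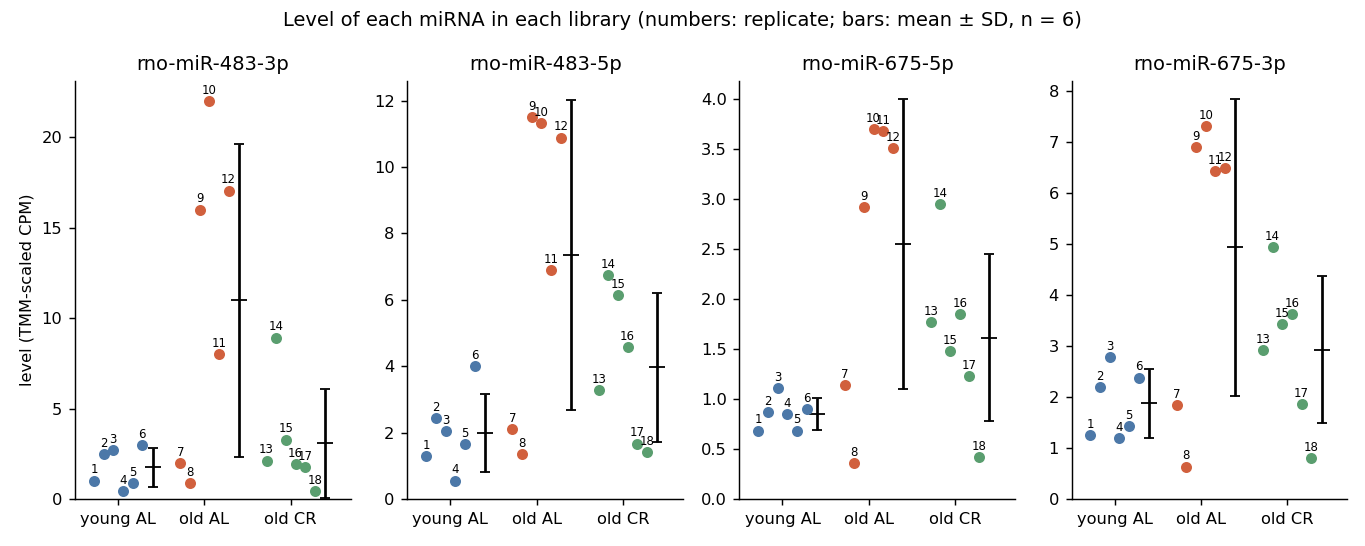
TMM-scaled CPM (linear vertical axes, a separate scale per panel) of the 4 members in young AL, old AL and old CR; points are libraries numbered by replicate, and black bars are mean ± SD of 6. Old AL replicates 9 to 12 lie above all young AL libraries in every panel, while replicates 7 and 8 do not, except replicate 7 for rno-miR-675-5p.

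The place of old AL replicate 7 depended on its TMM factor. With library totals in place of TMM its rno-miR-483-3p, rno-miR-675-3p and rno-miR-675-5p levels were 4.23, 3.94 and 2.43 CPM, above the highest young AL libraries (3.81, 3.06 and 1.16 CPM), and its rno-miR-483-5p level was 4.49 CPM, below the highest (5.14 CPM). On that scale 5 of 6 old AL libraries exceeded the whole young group for rno-miR-483-3p, rno-miR-675-3p and rno-miR-675-5p and 3 of 6 (replicates 9, 10 and 12) did for rno-miR-483-5p, and replicate 8 was within or below the young range for all 4.

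Old AL replicates 7 and 8 also stood apart in marker miRNAs after TMM scaling. Their striated muscle miRNAs summed to 69000 and 72540 CPM, against 110000 to 138600 CPM in replicates 9 to 12 and 89990 to 129600 CPM in young AL. The TMM factors of the 2 libraries (2.14 and 1.37) enter these sums. On library totals the sum of replicate 7 lay above young AL and replicates 9 to 12. That of replicate 8 lay below young AL but within the range of replicates 9 to 12. The list left out rno-miR-1b and rno-miR-3571, whose mean levels (224400 and 279300 CPM) exceeded that of rno-miR-1-3p (94840 CPM). The miR-1 family went the other way in replicate 7, at 44.7% of counts, the lowest share of any library. It took 53.8% in replicate 8, 55.3% to 61.6% in replicates 9 to 12 and 52.2% to 59.3% in young AL. Replicate 8 had 604 CPM of leukocyte miRNAs, against 109 to 164 CPM in the other old AL libraries, and 221 CPM of epithelial miRNAs, against 42.8 to 85.9 CPM. The part of these shifts in the result was not tested.

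Calls also depended on old AL replicate 8. Without it, edgeR called rno-miR-675-5p (1.84 on the log2 fold scale, adjusted p = 0.00669), rno-miR-675-3p (1.66, adjusted p = 0.0455) and rno-miR-483-3p (2.92, adjusted p = 0.0460), and rno-miR-483-5p had an adjusted p of 0.0542. rno-miR-675-5p was also called with known miRNAs only (adjusted p = 0.0262 from edgeR) and with a stricter filter on low counts (adjusted p = 0.0492 from edgeR).

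In old CR rats the means of all 4 members lay between those of young AL and old AL, and no comparison with either group passed the adjusted threshold. Among the old CR libraries, replicate 14 was the highest for each member after TMM scaling and replicate 18 the lowest, within or below the young range. Against young AL, the same 6 libraries as above, edgeR called 0 of 4 members (4.11% of 730 entries were called higher), as did DESeq2 (6.71% of entries). At an unadjusted p under 0.05 from edgeR 1 of 4 was higher (12.1% of entries), and 4 of 4 had a fold change of 1.5 or more (22.2% of entries). For 0 of 4 did every old CR library lie above every young AL library (2.74% of entries).

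For rno-miR-483-3p the old CR libraries were at 0.440, 2.02 and 8.93 CPM (lowest, median and highest). Of the 6 libraries, 2 lay above the young range, and replicate 14 stood apart from the rest. edgeR estimated 0.81 ± 0.65 on the log2 fold scale against young AL (adjusted p = 0.499), and 0.12 without old CR replicate 14. rno-miR-483-5p was at 1.40, 3.93 and 6.74 CPM, with 3 libraries above the young range and an edgeR estimate of 0.99 ± 0.49 (log2 fold, adjusted p = 0.218).

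For rno-miR-675-5p the old CR libraries were at 0.416, 1.62 and 2.95 CPM. As in old AL, 5 libraries lay above every young AL library and 1, replicate 18, lay below all of them. The edgeR estimate against young AL was 0.92 ± 0.36 on the log2 fold scale (adjusted p = 0.128), and without old CR replicate 18 it was 1.13 and called (adjusted p = 0.0199 from edgeR). rno-miR-675-3p was at 0.796, 3.17 and 4.94 CPM, with 4 libraries above the young range and 1 below it. Its edgeR estimate was 0.64 ± 0.39 (log2 fold, adjusted p = 0.332), or 0.43 without old CR replicate 14. With library totals in place of TMM, the old CR libraries above all of young AL numbered 2 for rno-miR-675-3p and 2 for rno-miR-483-5p, and were still 5 for rno-miR-675-5p and 2 for rno-miR-483-3p. Replicate 18, the low library, had the fewest listed striated muscle miRNAs of old CR (93360 CPM, against 102800 to 185600 CPM). Its miR-1 family share was 55.5% of counts, and that of replicate 15 was lower (54.4%). Replicate 18 also had the most leukocyte miRNAs of old CR (239 CPM, against 108 to 183 CPM). The part of these in the result was not tested.

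The difference by diet at 28 months was addressed by comparing old CR with old AL. All 4 members had lower means in old CR, but the groups overlapped for every member. edgeR estimated -1.84 ± 0.83 on the log2 fold scale for rno-miR-483-3p (adjusted p = 0.414) and -0.88 ± 0.57 for rno-miR-483-5p (adjusted p = 0.554). The rno-miR-483-3p estimate was -2.53 without old CR replicate 14 and otherwise stayed between -2.08 and -1.51 with 1 library left out. The estimates for the H19 hairpin were -0.75 ± 0.57 for rno-miR-675-3p and -0.65 ± 0.55 for rno-miR-675-5p, with adjusted p of 0.629 and 0.678 from edgeR. edgeR and DESeq2 each called 0 of 4 members lower, against 0% and 0.679% of 736 entries. At an unadjusted p under 0.05 from edgeR 1 of 4 was lower (4.76% of entries), 4 of 4 were at least 1.5-fold lower (15.5% of entries), and for 0 of 4 did every old CR library lie below every old AL library (0.136% of entries).

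**Figure D2:**
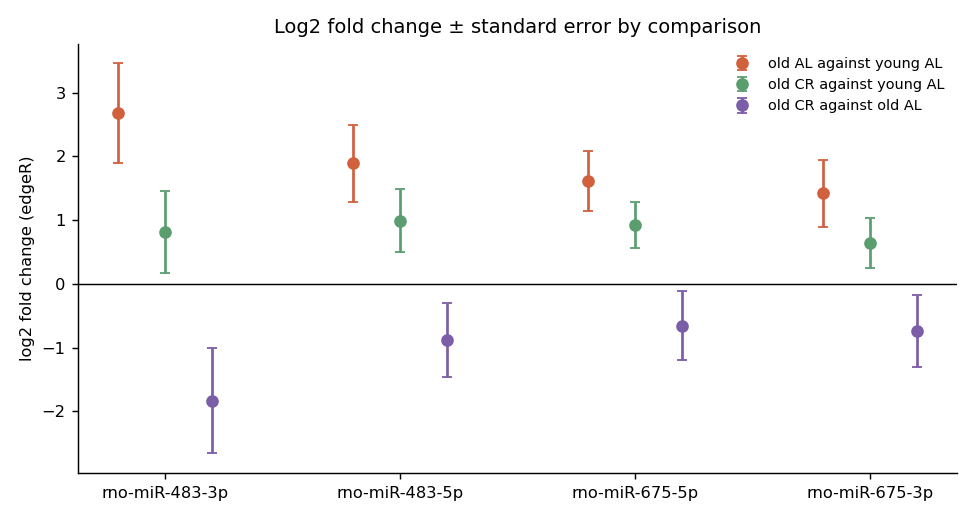
Log2 fold change from edgeR (vertical axis, points) with its standard error (bars) for the 4 members in the 3 comparisons. The old AL against young AL values run from 1.42 to 2.67, the old CR against young AL values from 0.64 to 0.99, and the old CR against old AL values from -1.84 to -0.65; none passed the adjusted threshold, and the comparisons share groups.

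Although they come from different transcripts of opposite parental origin, the miR-483 and miR-675 arms went up and down together from rat to rat. This was examined in the deviations of log2 CPM from the group means, which remove the differences between groups. Over the 18 libraries, the arms of the same hairpin were correlated with a Pearson r of 0.94 for miR-483 (Spearman rho 0.92) and 0.97 for miR-675 (Spearman rho 0.96). Between hairpins, r was 0.94 for rno-miR-483-3p and rno-miR-675-3p (rho 0.93), 0.90 for rno-miR-483-5p and rno-miR-675-3p (rho 0.87), 0.88 for rno-miR-483-3p and rno-miR-675-5p (rho 0.89) and 0.79 for rno-miR-483-5p and rno-miR-675-5p (rho 0.78).

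In permutation tests within groups the adjusted p over these 6 pairs ranged from 1.5e-05 to 0.00063 for r and from 3e-05 to 0.00101 for rho. The unadjusted p ranged from 1e-05, the smallest that 100000 resamples can give, to 0.00063 for r, and from 1e-05 to 0.00101 for rho. Without the 2 libraries farthest from the median on the first-named member, r was 0.78 to 0.92. Since the old AL libraries were split between low and high levels, the correlations were also taken without old AL, where r was 0.61 to 0.92 over 12 libraries. Within single groups the lowest r values were those of young AL, 0.29 for rno-miR-483-5p and rno-miR-675-5p and 0.57 for rno-miR-483-3p and rno-miR-675-5p. The points share the TMM factor of their library, and with library totals in its place r was 0.70 to 0.95.

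**Figure D3:**
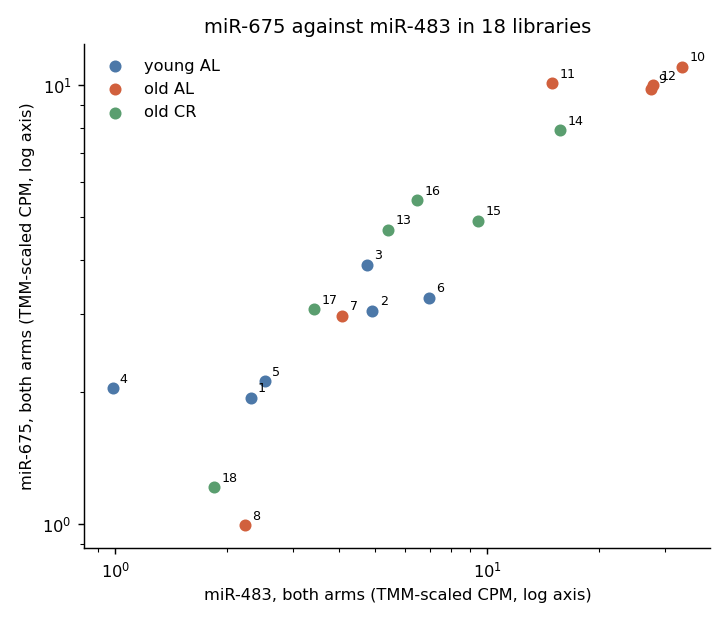
Sum of both miR-675 arms (vertical log axis, TMM-scaled CPM) against the sum of both miR-483 arms (horizontal log axis, TMM-scaled CPM) in the 18 libraries, numbered by replicate. Old AL replicates 9 to 12 and old CR replicate 14 are at the upper right. Old AL replicate 8 and old CR replicate 18 are within the young AL range of miR-483 but below every young AL library for miR-675.

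The likeness was set against that of other miRNAs, as a description. Known miRNAs with a mean of at least 1 CPM were compared with the mean log2 CPM of the miR-483 arms over the 18 libraries. Of these 319 miRNAs, the most alike were rno-miR-675-3p (Spearman rho 0.96) and rno-miR-675-5p (0.89), where the median rho was 0.08. Next came rno-miR-1843a-3p (0.84), rno-miR-181b-5p (0.81) and rno-miR-28-3p (0.78). With library totals in place of TMM, the miR-675 arms still ranked 1 and 2 (rho 0.95 and 0.88), while rno-miR-1843a-3p, rno-miR-181b-5p and rno-miR-28-3p had a rho of 0.57, 0.36 and 0.42. On deviations from the group means, rno-miR-675-3p again ranked 1 (rho 0.93), but rno-miR-181b-5p ranked 2 (0.92), ahead of rno-miR-675-5p at 3 (0.86).

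In the opposite direction, the miRNAs most like miR-675 were rno-miR-483-5p (rho 0.91) and rno-miR-483-3p (0.87) of 319, with a median rho of 0.06, followed by rno-miR-1839-5p (0.76), rno-miR-133a-5p (0.72) and rno-miR-30c-5p (0.72). With library totals the miR-483 arms again ranked 1 and 2 (rho 0.93 for rno-miR-483-3p and 0.90 for rno-miR-483-5p), and rno-miR-1839-5p, rno-miR-133a-5p and rno-miR-30c-5p were at 0.12, 0.44 and 0.23. On deviations from the group means rno-miR-483-3p ranked 1 (rho 0.88) and rno-miR-483-5p ranked 4 (0.78), behind rno-miR-26a-5p (0.81) and rno-miR-28-5p (0.80), which are named here after their values were seen.

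**Figure D4:**
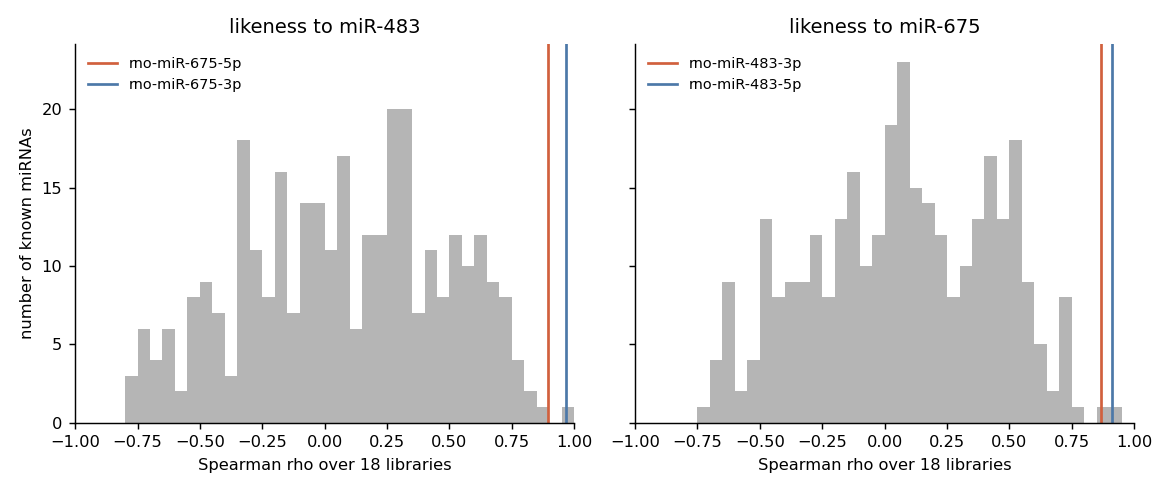
Number of known miRNAs (vertical axis, grey bars) by the Spearman rho of their log2 CPM with the mean of the miR-483 arms (left) or of the miR-675 arms (right) over 18 libraries. Coloured lines mark the arms of the other hairpin, which lie at the upper end of both distributions, at 0.89 and 0.96 on the left and at 0.87 and 0.91 on the right.

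Ratios within a library need no scaling factor and were used to ask whether the arms, or the hairpins, changed in proportion. The 3p arm of miR-675 outnumbered the 5p arm in 18 of 18 libraries, and the geometric mean of its 5p to 3p ratio was 0.475, 0.536 and 0.551 in the young AL, old AL and old CR groups. Its log2 ratio differed by 0.17 (old AL minus young AL), 0.21 (old CR minus young AL) and 0.04 (old CR minus old AL), with adjusted p of 0.384, 0.384 and 0.723 by exact permutation tests. For miR-483 the 3p arm was the higher in 8 of 18 libraries, 2 of them young AL, 4 old AL and 2 old CR.

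The miR-483 3p to 5p ratio was 1.95, 1.57, 1.39 and 1.16 in old AL replicates 10, 12, 9 and 11, the libraries with the highest levels, and 0.941 and 0.656 in replicates 7 and 8. In young AL it lay between 0.541 and 1.32 and in old CR between 0.316 and 1.32. The log2 ratio was higher in old AL than in young AL by 0.53 (standard error 0.29, p = 0.104, adjusted p = 0.234) and lower in old CR than in old AL by a difference of -0.93 (standard error 0.39, p = 0.0433, adjusted p = 0.136), by two-sided exact permutation tests adjusted over 9 tests. The difference between old CR and young AL was -0.40 (standard error 0.37, adjusted p = 0.384, exact permutation test).

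The ratio of miR-675 to miR-483 counts had geometric means of 0.840, 0.459 and 0.697 in the young AL, old AL and old CR groups. Among the high old AL libraries, replicates 9, 10 and 12 had ratios of 0.357, 0.330 and 0.358, below every young AL library, and replicate 11 had 0.677. Replicate 8, a low library, had 0.445, also below the young range. The difference in log2 ratio was -0.87 for old AL minus young AL (standard error 0.36, p = 0.0238, adjusted p = 0.136) and 0.60 for old CR minus old AL (standard error 0.26, p = 0.0455, adjusted p = 0.136, exact permutation tests). The difference between old CR and young AL was -0.27 (adjusted p = 0.548, exact permutation test). None of the 9 ratio tests passed an adjusted p of 0.05, and the smallest p that an exact permutation test of 6 against 6 libraries can give is 0.00216.

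**Figure D5:**
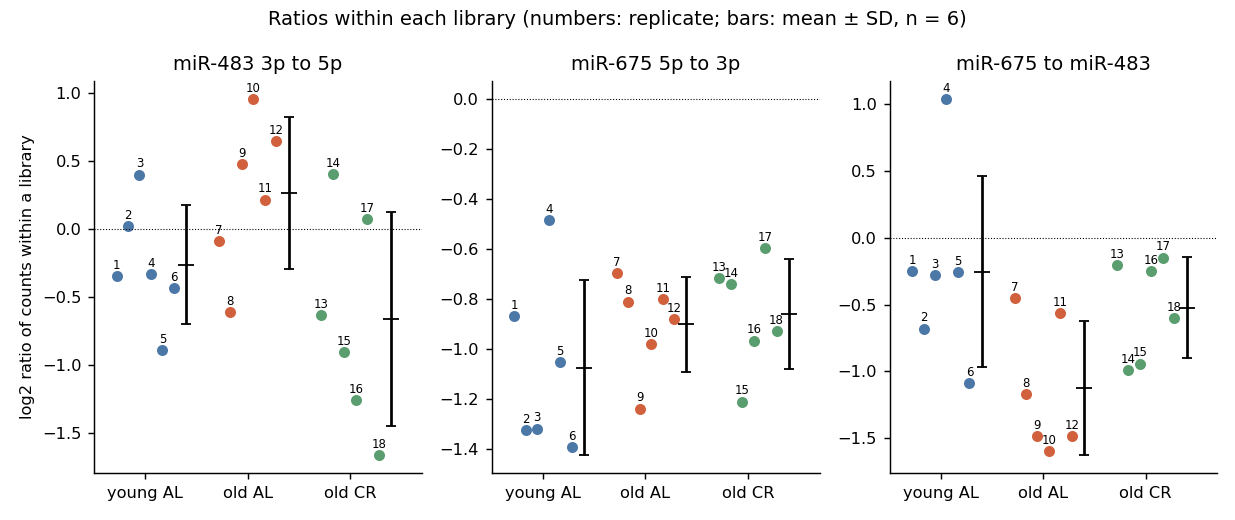
Log2 ratio of counts within each library (vertical axes) for the 3p to 5p arm of miR-483, the 5p to 3p arm of miR-675 and miR-675 to miR-483; points are libraries numbered by replicate, bars are mean ± SD of 6, and the dotted line marks equal counts. The miR-675 arm ratio lies below 0 in every library, and each of the ratios overlaps between groups.

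Of other imprinted loci, the arms of miR-296 and miR-298 from the Gnas locus and miR-335 from Mest were examined, 5 entries in all, and the Dlk1-Dio3 cluster was left out of this list. In the 3 comparisons edgeR and DESeq2 called 0 of 5 in either direction, and 0 of 5 had an unadjusted p under 0.05 from edgeR. In old AL against young AL their median log2 fold change was -0.03, beside 0.06 over all entries. These miRNAs were rarer than miR-483 and miR-675, at 0.476 to 1.73 CPM in sum per library.

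Among 12 miRNAs known to act on insulin-like growth factor signalling in muscle, edgeR called 1 in old AL against young AL and 0 in the other comparisons. This was rno-miR-182, a repressor of Foxo factors, which rose by 1.15 ± 0.28 on the log2 fold scale (adjusted p = 0.0440), a call that was lost when any of 10 of the 12 libraries was left out. DESeq2 also called rno-miR-29b-3p higher, in old AL (adjusted p = 0.0454) and in old CR (adjusted p = 0.00812), each against young AL. The median log2 fold change of the 12 in old AL was 0.20.

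Of 18 entries linked to muscle regeneration, 15 were tested in old AL against young AL and 1 was called. rno-miR-31a-5p rose by 3.56 on the log2 fold scale (adjusted p = 0.00383 from edgeR), while the median of the 15 was 0.14. It was also the 1 called of 16 in old CR against young AL (4.62, adjusted p = 0.00377 from edgeR).

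Liver is a tissue in which Igf2 is expressed before birth. After TMM scaling, its marker miRNAs had higher sums in every old library than in any young AL library. On library totals, old AL replicate 11 fell below young AL replicate 6. The 5 liver entries, rno-miR-122-5p among them, summed to 45.9 to 112 CPM in young AL, 118 to 1270 CPM in old AL and 213 to 366 CPM in old CR, and none of the 5 was at 0 throughout a group. edgeR called 0 of the 5 in old AL (DESeq2 called 3) and, in old CR against young AL, rno-miR-122b and both arms of rno-miR-122 higher (3.47 to 3.65 on the log2 fold scale, adjusted p = 0.0296 to 0.0329). Neither tool called rno-miR-192-5p or rno-miR-194-5p against young AL. Their edgeR log2 fold changes were 0.71 and 0.20 in old AL and 0.57 and 0.09 in old CR. The calls of rno-miR-122-5p and rno-miR-122b were lost without any of 9 and 8 single libraries of 12. In old AL replicates 7 to 12, in that order, the liver sums were 401, 118, 1270, 297, 194 and 476 CPM, where those of the 4 members were 7.05, 3.23, 37.3, 44.3, 25.0 and 37.9 CPM. After TMM scaling replicate 8 was the lowest and replicates 9 and 12 were high in both, whereas replicate 7 was high in liver miRNAs alone. On library totals replicate 11 was the lowest in liver miRNAs. Over the 18 libraries rno-miR-122-5p had a rho of 0.55 with miR-483 and 0.59 with miR-675 (ranks 48 and 19 of 319). With library totals rno-miR-122-5p and rno-miR-122b held ranks 3 and 4 for both hairpins (rho 0.59 for each with miR-483 and 0.63 and 0.64 with miR-675). On deviations from the group means rno-miR-122-5p had a rho of 0.31 and 0.24 (ranks 111 and 116).

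The epithelial list, of the miR-200 family, rno-miR-203a-3p and rno-miR-205, had 0 of 6 entries called by edgeR, and DESeq2 called rno-miR-200a-3p higher in old CR (adjusted p = 0.00347, against young AL). DESeq2 gave no p-value for rno-miR-200b-3p, rno-miR-200c-3p and rno-miR-203a-3p in old CR against either group. Their edgeR log2 fold changes against young AL were 3.69, 3.58 and 3.15, beside 3.17 for rno-miR-200a-3p. The list was at 1280 CPM in old CR replicate 14, which had the highest member levels of its group, and at 31.3 to 125 CPM in the other old CR libraries. The part of these tissues in the result was not tested.

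The summed levels of the remaining lists overlapped between young AL and old AL. They were 186 to 317 against 131 to 345 CPM for neuroendocrine, 7.02 to 21.9 against 11.8 to 37.6 CPM for nerve, 3.29 to 10.1 against 6.5 to 11.7 CPM for erythroid (rno-miR-451-5p and others), 123 to 171 against 109 to 604 CPM for leukocyte (rno-miR-142-5p and others) and 6351 to 11410 against 6115 to 11100 CPM for stromal miRNAs (rno-miR-199a-5p and others). Of these, edgeR called 1 in old AL, rno-miR-375-3p (2.64 on the log2 fold scale, adjusted p = 0.0376). Against young AL it called 5 in old CR, rno-miR-375-3p, rno-miR-7b, rno-miR-124-3p, rno-miR-9a-5p and rno-miR-9a-3p, all higher. The edgeR calls of rno-miR-375-3p in old AL and of rno-miR-7b in old CR were each lost without any of 10 single libraries of 12. In old AL against young AL, DESeq2 also called rno-miR-144-5p (adjusted p = 0.0113) and rno-miR-124-3p (adjusted p = 0.0314) higher. DESeq2 gave no p-value there for rno-miR-142-3p, rno-miR-142-5p or rno-miR-155-5p. In old CR against old AL, DESeq2 called rno-miR-9a-3p (adjusted p = 0.0338) and rno-miR-9a-5p (adjusted p = 0.0448) higher.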

How the data were processed

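Reads had been trimmed by the authors with Cutadapt 1.2.1 and Sickle, known and predicted miRNAs had been identified with miRDeep2 and counted with featureCount, and the deposited values are raw counts of 763 known and 146 predicted miRNAs. The submitters' processing notes also name Bowtie2 2.4.0 and Rnor_6.0. How reads matching several places or the opposite strand were treated, and the miRBase release, were not given in the sources used here. All columns were matched to samples, so that 0 were unused.

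Counts were scaled by TMM and compared pairwise with edgeR 4.0.16 in R 4.3.3 (robust quasi-likelihood test, two-sided, on entries with at least 10 counts over the 12 libraries compared). Calls used the study's thresholds (adjusted p 0.05, fold change 1.5), with Benjamini-Hochberg adjustment over all entries. DESeq2 1.42.0, the tool of the study, was an alternative. Log2 values used a prior count of 0.5. Ratios were tested by exact permutation and correlations by 100000 permutations within groups (SciPy 1.17.1). The fits were tested on simulated data. Replicate pairs differed by at least 1214 chi-square units per degree of freedom.

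The members and lists were chosen with earlier results of these data known. Named miRNAs are the members, the 5 most alike for each hairpin, the listed miRNAs called by edgeR, the defining marker of each list, and candidates within 10% or 2 counts of a member. rno-miR-29b-3p, rno-miR-200a-3p and rno-miR-144-5p were added because DESeq2 called them. Listed miRNAs to which DESeq2 gave no p-value were also named in places, as were rno-miR-1b and rno-miR-3571 of the miR-1 family. The labels give no batch. The column headers number young AL replicates 1 and 2 out of sequence, for a reason not given. Without both of them edgeR still called 0 of 4 members in old AL or in old CR, each against young AL. Alternatives were other scalings, filters, fits, DESeq2 and leaving out libraries.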

Additional observations from a re-analysis of the deposited data

Results flagged for a closer look

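One library stood apart from its group. rno-miR-483-3p was at 8.93 CPM in old CR replicate 14, and the gap to the next library was 0.665 of the range of the 6 old CR libraries, above the 95% critical value of Dixon's test. Levels and ratios were examined in 21 sets of 6 libraries, and chance alone gives about 1 such library in 20 sets. The same library had 6.74 CPM of rno-miR-483-5p, 4.94 CPM of rno-miR-675-3p and 2.95 CPM of rno-miR-675-5p, the highest of old CR in each case after TMM scaling. With library totals old CR replicate 15 was higher for rno-miR-483-5p (7.15 against 5.16 CPM) and rno-miR-675-3p (3.99 against 3.78 CPM).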

How the results depend on the processing

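Of 116 values of the member fold changes under other scalings, filters, fits or tools, 110 kept their direction and side of the threshold, and 6 became calls. In old AL against young AL these were the DESeq2 values of rno-miR-483-3p (2.65), rno-miR-483-5p (1.88), rno-miR-675-3p (1.40) and rno-miR-675-5p (1.59), and for rno-miR-675-5p filterByExpr (1.53) and known miRNAs only (1.58); the cause was not tested. With 1 library left out, the log2 fold changes ranged from 2.35 to 2.92 for rno-miR-483-3p, 1.70 to 2.24 for rno-miR-483-5p, 1.27 to 1.66 for rno-miR-675-3p and 1.47 to 1.84 for rno-miR-675-5p, with calls only without old AL replicate 8. In old CR against young AL rno-miR-675-5p ranged from 0.67 to 1.13, called only without old CR replicate 18. In old CR against old AL the ranges were -2.53 to -1.51, -1.10 to -0.71, -0.98 to -0.55 and -0.91 to -0.45 for rno-miR-483-3p, rno-miR-483-5p, rno-miR-675-3p and rno-miR-675-5p. The 9 ratios kept their side of the threshold in all 126 other values. The miR-675 5p to 3p difference between old CR and old AL ranged from -0.026 to 0.11 and turned negative without old AL replicate 9 (-0.026) or old CR replicate 17 (-0.011). Of the 12 calls of listed miRNAs that are no members, library totals ended 8, and leaving out 1 library at a time ended each call in 0 to 10 of 12 cases. The 6 correlations held under library totals. No paired analysis was possible because the groups compared share no replicate number.

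The number of entries called moved more. In old AL against young AL it was 24, against 0 with library totals (116 at an unadjusted p under 0.05), 37 with filterByExpr, 38 in a single fit over the groups, 53 with known miRNAs only and 84 with DESeq2, and 9 to 20 with 1 library left out, and it was 9 without young AL replicate 3 as without old AL replicate 12. In old CR against young AL it was 68, 109 with DESeq2 and 45 to 67 with 1 library left out (45 when old CR replicate 18 was dropped), and 34.0% of calls were higher with library totals against 44.1%. In old CR against old AL it was 2, 0 with upper-quartile factors (83 at an unadjusted p under 0.05), library totals (60), no robust estimation (90) or known miRNAs only (68), 19 with DESeq2 and 0 to 3 with 1 library left out. Library totals moved the median of all entries by 0.15, -0.12 and -0.26 in the 3 comparisons.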

Other observations

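1 predicted candidate miRNA was counted in 2 of the 18 libraries, both young AL. It had 154 counts in replicate 2 and 99 in replicate 5, where rno-miR-675-3p had 146 and 100. In the other 16 libraries the candidate was at 0 while rno-miR-675-3p had 52 counts or more. With 2 libraries to compare, a match within 10% can arise by chance, and the sequence of the candidate was not analysed here.

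Young AL replicate 4 had the fewest counts of the members and the highest miR-675 to miR-483 ratio, 2.06, the only library in which miR-675 outnumbered miR-483.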
